A study of Saccharomyces cerevisiae with 12 samples.

Results

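The genes described here are 38 genes of the budding yeast peroxisome, of the 5656 genes that had a probe set assigned to them alone. They were taken by symbol from the probe set annotation and comprise 12 beta-oxidation genes, the 2 activators PIP2 and OAF1, and 24 PEX genes, which encode peroxins. A single-gene probe set was found for each of the 38, and all 38 were among the 5321 genes that passed the filter on low intensity (above 12 on at least 3 of the 12 arrays). RNA of 12 chemostat samples of Saccharomyces cerevisiae was measured on one-channel Affymetrix arrays, 1 array per sample, in 4 groups of 3. CEN.PK540-3A is a MATa strain in which positions 41 to 2621 of LEU3 carry a loxP-flanked kanamycin marker instead, written leu3(41,2621)::loxP-Kan-loxP, and CEN.PK113-7D is the MATa LEU3 reference. LEU3 encodes the transcription factor of the leucine pathway. Each strain was grown at 30 °C, pH 5.0 and a dilution rate of 0.1 per hour under carbon limitation or nitrogen limitation. The carbon-limited feed held ethanol at 6 g/l, with ammonium sulfate at 5 g/l. In the nitrogen-limited feed ammonium sulfate was at 1 g/l and glucose at 59 g/l (reference) or 53 g/l (deletion strain), chosen to leave 17 g/l glucose in the culture. The limiting nutrient and the carbon source therefore changed together and cannot be told apart. With 1 deletion strain, the deletion cannot be told apart from any other difference between the strains.

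In yeast, fatty acids are broken down by beta-oxidation in peroxisomes and not in mitochondria. Fatty acids enter the organelle as acyl-CoA or are activated inside it, are shortened in cycles of oxidation, hydration, a further oxidation and thiolysis, and leave as acetyl units. The enzymes are known to be repressed by glucose and induced on oleate through the heterodimer of Oaf1 and Pip2, with Adr1 as a further activator on non-fermentable carbon sources. Peroxins build the organelle: they import folded enzymes into the matrix, insert membrane proteins, and set the number and size of peroxisomes.

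LEU3 was read first, as a check of the strain labels. Its intensity lay between 0.3 and 0.6 on the 6 deletion arrays, against 66.3 ± 9.1 in the carbon-limited reference and 102.7 ± 7.1 in the nitrogen-limited reference (mean ± SD, n = 3 each). The deletion arrays were at least 5.49-fold below the reference with carbon limiting (adjusted p = 5.12e-08, limma) and at least 8.54-fold below it with nitrogen limiting (adjusted p = 4.4e-10). The position of the probes relative to the deleted stretch was not checked. Some arrays of the reference strain stood apart. Dividing the 3' by the 5' actin probe set gave 9.27 and 13.98 on carbon-limited reference arrays 2 and 3, and 1.54 to 3.31 on the other 10 arrays. The ratio also differed by strain without overlap. With carbon limiting it was 3.31 to 13.98 in the reference and 1.71 to 1.91 in the deletion strain. With nitrogen limiting it was 2.45 to 3.29 and 1.54 to 1.90. Strain and actin ratio thus changed together under both limitations. The same ratio of the control gene SPT15 overlapped between the strains only with nitrogen limiting (3.42 to 3.68 and 3.31 to 4.09). Nitrogen-limited reference arrays 2 and 3 were bright for the control probe set ThrX-3 (3094.8 and 2747.7), which did not exceed 1.6 elsewhere. Beside the results they touch, values are given without those arrays and with the actin ratio as a term in the fit. Leaving out either pair leaves 1 array in its group, which is then assumed to vary like the arrays of the other groups, so the tests of those fits rest on 1 sample in that group. The array titles number the samples of a group but do not say that they came from separate cultures, so the p-values measure the spread between these samples, which may be technical. Each array averages a culture, so a change in every cell and a change in the share of cells cannot be told apart.

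**Figure D1:**
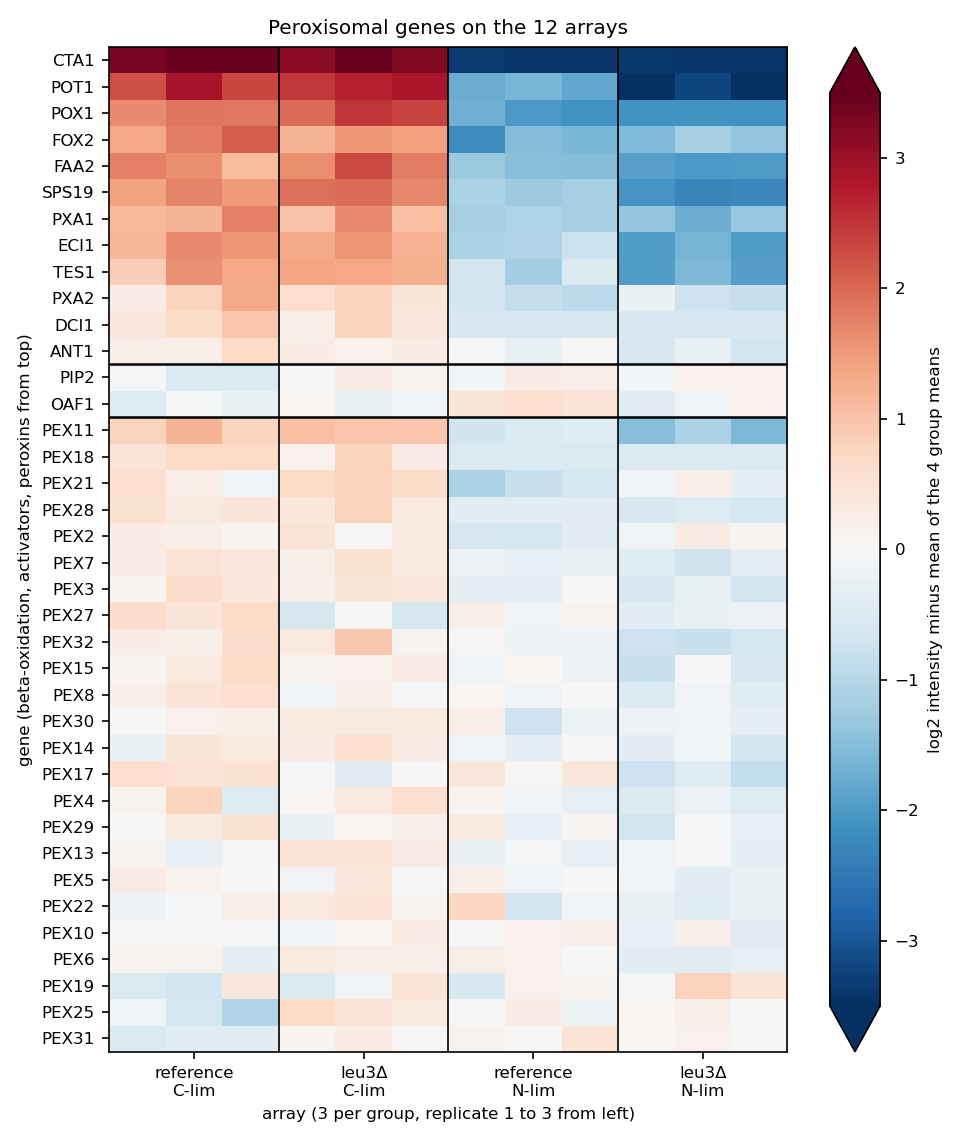
Heat map of the 38 genes (rows) on the 12 arrays (columns, 3 per group), as log2 intensity minus the mean of the gene's 4 group means, after intensities below 12 were set to 12. Horizontal lines separate beta-oxidation genes, activators and peroxins, and colours stop at 3.5 in either direction. The upper 12 rows change colour between the carbon-limited and the nitrogen-limited arrays in both strains, and most peroxin rows are paler.

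With nitrogen limitation on glucose, all 12 beta-oxidation genes fell relative to carbon limitation on ethanol, in both strains. The median log2 change of the 12 was -2.61 in the reference and -3.17 in the deletion strain, where the median of all 5321 genes was 0.19 and 0.02. A gene was called when its adjusted p was under 0.05 in the limma fit of the 4 group means, with Benjamini-Hochberg adjustment over all 5321 genes. Of the 38 genes, 21 fell and 4 rose in the reference, and 26 fell and 0 rose in the deletion strain, where 0 were also higher at an unadjusted p under 0.05. Over all genes, 47.6% were called in the reference, 14.9% as lower and 32.6% as higher. In the deletion strain 35.8% were called, 17.8% as lower and 18.1% as higher. The 24 peroxins moved less: 9 fell and 2 rose in the reference, with a median of -0.34, and 14 fell and 0 rose in the deletion strain, with a median of -0.59.

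CTA1, which encodes the peroxisomal catalase A that removes the hydrogen peroxide made by the oxidase, had the largest change of the 38 in both strains. On reference arrays 1 to 3 its intensity was 1275, 1521 and 1449.8 under carbon limitation and 12.4, 10.4 and 11 under nitrogen limitation. On the deletion arrays it was 1106, 1463 and 1201 and 12.2, 8.3 and 8.5 under the same limitations. The carbon-limited arrays read 1105.7 or more, and every nitrogen-limited array was near the floor of 12, with 2 of 3 below it in each strain. The log2 change was -6.86 ± 0.14 (SE) in the reference (adjusted p = 6e-15) and -6.69 ± 0.14 in the deletion strain (adjusted p = 9.02e-15). These correspond to 116-fold and 103-fold, with values below 12 set to 12, which makes the printed changes smaller.

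The genes of the 3 core enzymes all fell. POX1 encodes acyl-CoA oxidase, the first enzyme of the cycle. In the reference it read 166, 194 and 188 with carbon limiting, then 16.3, 13 and 11.5 with nitrogen limiting, and 207, 298 and 271 against 11.2, 10.8 and 9.3 on the deletion arrays. The groups of the limitations did not overlap in either strain, and 1 of 3 nitrogen-limited reference arrays and 3 of 3 nitrogen-limited deletion arrays lay below 12. POX1 was 13.4-fold lower in the reference (log2 -3.74 ± 0.16, adjusted p = 4.05e-11) and at least 21.3-fold lower in the deletion strain (adjusted p = 5.46e-12). POX1 has 4 probe sets, of which the brightest was used. The other three gave log2 changes of -1.72, 0 and -1.42 in the reference and -3.72, -2.46 and -3.89 in the deletion strain. The probe sets thus disagree on the size of the change. The one that gave 0 was below 12 on all 6 reference arrays.

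FOX2 encodes the multifunctional enzyme that carries out hydration and the second oxidation. In the reference it read 902, 1219 and 1535 with carbon limiting, then 77, 122 and 115 with nitrogen limiting, and 809, 1013 and 944 against 120.2, 158 and 134 on the deletion arrays. The limitations were separated on every array of both strains. The log2 change was -3.53 ± 0.21 in the reference (adjusted p = 2.23e-09) and -2.75 ± 0.21 in the deletion strain (adjusted p = 5e-08). POT1 encodes the 3-ketoacyl-CoA thiolase, the last enzyme of the cycle and a cargo of the Pex7 receptor. Its intensity was 1023, 1578 and 1086 against 64.2, 71 and 60.6 in the reference and 1189.7, 1429 and 1569 against 18, 23.1 and 18.4 in the deletion strain. The carbon-limited arrays of the strains overlapped, and the nitrogen-limited ones did not. POT1 was 18.5-fold lower in the reference (log2 -4.21 ± 0.18, adjusted p = 3.48e-11) and 70.4-fold lower in the deletion strain (log2 -6.14 ± 0.18, adjusted p = 3.54e-13).

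Genes for uptake and activation fell too. FAA2 encodes the peroxisomal acyl-CoA synthetase for medium-chain fatty acids. It read 164, 150 and 105 against 19.7, 17.3 and 16.9 in the reference and 149, 241 and 167 against 12.9, 11.9 and 12.3 in the deletion strain, in the order carbon then nitrogen limitation. The groups were apart in both strains, and 1 of 3 nitrogen-limited deletion arrays lay below 12. The change was -2.93 ± 0.19 (adjusted p = 7.69e-09) and -3.87 ± 0.19 log2 (adjusted p = 2.43e-10). PXA1 and PXA2 encode the subunits of the transporter that brings long-chain acyl-CoA into the organelle. PXA1 fell by 5.65-fold in the reference (adjusted p = 1.05e-07) and 6.49-fold in the deletion strain (adjusted p = 4.19e-08). PXA2 fell by 3.03-fold and 2.28-fold (adjusted p = 4.22e-05 and 0.000709). ANT1, the carrier that supplies ATP to the matrix for this activation, had the smallest change of the 12, -0.47 ± 0.17 in the reference (adjusted p = 0.0301) and -0.71 ± 0.17 in the deletion strain (adjusted p = 0.0035). Its call in the reference ended without any 1 of 3 reference arrays (carbon-limited 3, nitrogen-limited 1 or 2), with changes from -0.48 to -0.31.

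The auxiliary enzymes handle double bonds and release free acids. SPS19 encodes 2,4-dienoyl-CoA reductase, needed for unsaturated fatty acids. It read 800.4, 1019.8 and 858 against 141, 125 and 135 in the reference and 1147, 1168 and 979 against 71.9, 60.6 and 63.3 in the deletion strain. All nitrogen-limited arrays were far below all carbon-limited ones, and the deletion arrays were the lowest. The log2 changes were -2.73 ± 0.14 (adjusted p = 4.62e-10) and -4.07 ± 0.14 (adjusted p = 3.34e-12). ECI1 encodes the enoyl-CoA isomerase of the same branch and read 402, 564 and 514 against 83.9, 87 and 107 in the reference and 452, 530 and 423 against 46.9, 58.9 and 46.8 in the deletion strain. It was 5.3-fold lower (adjusted p = 1.65e-08) and 9.22-fold lower (adjusted p = 4.64e-10), with no overlap between limitations. TES1 encodes the peroxisomal acyl-CoA thioesterase and read 1094, 1834 and 1535 against 384, 266 and 429 in the reference and 1556, 1539 and 1426 against 155, 201 and 158 in the deletion strain. Its groups were likewise apart, by 4.13-fold (adjusted p = 1.16e-06) and 8.84-fold (adjusted p = 7.04e-09). DCI1, a gene related in sequence to ECI1, was dim: 22.9, 27.4 and 34.9 against 7.8, 6.6 and 10.5 in the reference and 20.5, 30.1 and 22.6 against 4.7, 4.3 and 4.4 in the deletion strain. All 6 nitrogen-limited arrays lay below 12, so DCI1 was at least 2.33-fold lower in the reference (adjusted p = 4.15e-05) and at least 2.01-fold lower in the deletion strain (adjusted p = 0.000295).

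**Figure D2:**
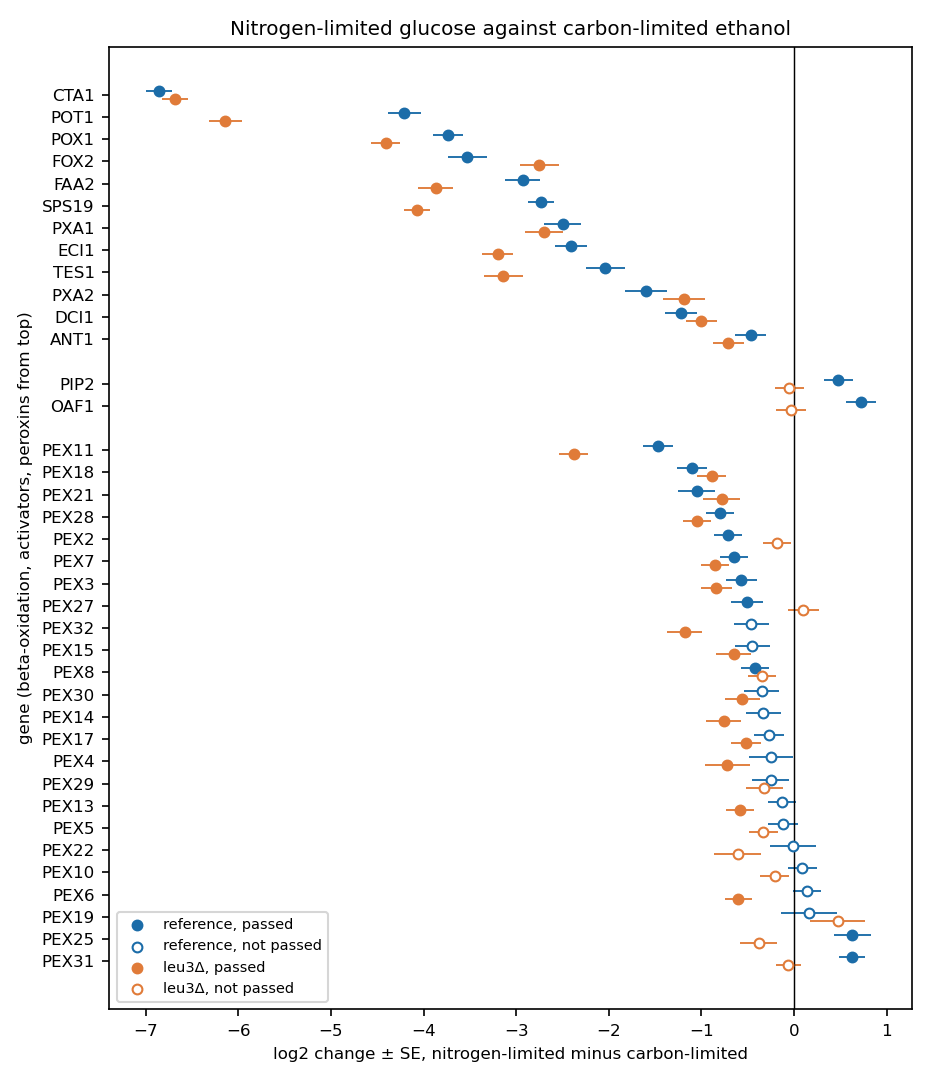
Log2 change with nitrogen limitation (nitrogen-limited minus carbon-limited) of each of the 38 genes in the reference and the deletion strain, with bars for the standard error of the limma fit. Filled points passed an adjusted p under 0.05 and open points did not. All 12 beta-oxidation genes lie below 0 in both strains, and the lowest peroxin is PEX11 at -1.47 and -2.38.

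The genes of the activators did not fall with the enzymes. PIP2 read 65.9, 49.6 and 49.4 against 63.8, 84.3 and 81.3 in the reference and 68, 82.9 and 74.4 against 64.6, 76.9 and 75.7 in the deletion strain. OAF1, the fatty acid-binding partner of Pip2, read 63.4, 82.2 and 72.9 against 115, 126 and 118 in the reference and 91, 72.9 and 77.8 against 66.3, 77 and 95.7 in the deletion strain. The nitrogen-limited reference arrays were the 3 highest of the 12 for OAF1, while for PIP2 the groups overlapped. OAF1 rose in the reference by 0.72 ± 0.16 log2 (adjusted p = 0.00194), and PIP2 by 0.48 ± 0.16 (adjusted p = 0.0248), a call that ended without any 1 of 4 reference arrays (carbon-limited 2 or 3, nitrogen-limited 2 or 3), with changes of 0.40 to 0.43. In the deletion strain the changes were -0.03 for OAF1 and -0.05 for PIP2, and neither passed. Of 6 further regulator genes of this system, 2 fell in both strains. ADR1 read 120.4, 68.5 and 50.2 against 22.5, 10 and 10.9 in the reference and 97.9, 136 and 93 against 7.5, 6.6 and 6.8 in the deletion strain. It was 5.04-fold lower in the reference, with 2 of 3 nitrogen-limited arrays below 12 (adjusted p = 1.05e-05), and at least 8.94-fold lower in the deletion strain (adjusted p = 3.67e-07). CAT8, an activator of genes for growth on non-fermentable carbon, changed by -1.89 ± 0.19 in the reference (adjusted p = 1.21e-06), and all 3 nitrogen-limited deletion arrays were below 12, at least 4.55-fold lower (adjusted p = 2.48e-07). None of the other 4 was called lower, and 3 of them rose in each strain. RSF2, a zinc-finger regulator of growth on glycerol, rose by 1.85 in the reference and 0.75 in the deletion strain (adjusted p = 5.59e-07 and 0.00346), and MIG1, the gene of a glucose repressor, rose in the reference (0.94, adjusted p = 0.000671). Between the strains 1 of the 6 was called, RSF2 under nitrogen limitation (-1.23, adjusted p = 0.000164).

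Among the peroxins, the 3 largest decreases in the reference were those of PEX11, PEX18 and PEX21. PEX11, whose product elongates peroxisomes before they divide, read 1192, 1559 and 1164 against 419, 479 and 506 in the reference and 1404, 1324 and 1322 against 241, 314 and 229.7 in the deletion strain. The nitrogen-limited deletion arrays were the 3 lowest, then the nitrogen-limited reference arrays, then all carbon-limited arrays. PEX11 changed by -1.47 ± 0.16 (adjusted p = 2.99e-06) and -2.38 ± 0.16 (adjusted p = 1.03e-08). PEX18 and PEX21 encode related co-receptors of Pex7. PEX18 read 23.2, 26.7 and 27.3 against 4, 3.1 and 5.5 in the reference and 18.7, 28.8 and 20.5 against 2.7, 1.9 and 0.3 in the deletion strain. All 6 nitrogen-limited arrays lay below 12, and PEX18 was at least 2.14-fold lower (adjusted p = 5.12e-05) and at least 1.86-fold lower (adjusted p = 0.000396). PEX21 read 335, 269.5 and 205 against 107, 130 and 149 in the reference and 373, 398 and 354 against 215, 270.4 and 179.5 in the deletion strain. It fell in both, by 2.07-fold (adjusted p = 0.00049) and 1.72-fold (adjusted p = 0.00581), with no overlap between limitations. Of the receptors themselves, PEX7 changed by -0.65 and -0.85 (adjusted p = 0.00211 and 0.000322). PEX5, the receptor of most matrix enzymes, did not pass (-0.12 and -0.33).

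The docking genes hold the import machinery at the membrane, and the export genes return the receptors to the cytosol. PEX13, PEX14 and PEX17, the docking genes, gave 0 of 3 calls in the reference, with changes of -0.13, -0.33 and -0.27, and 3 of 3 lower in the deletion strain, with -0.58, -0.76 and -0.52. The receptor export genes PEX4, PEX6, PEX15 and PEX22 gave 0 of 4 calls in the reference and 3 of 4 lower in the deletion strain: PEX4 -0.72, PEX6 -0.60 and PEX15 -0.65. Tested as an interaction, the difference between the strains passed for PEX6 and for none of the other 6. These reference counts depended on the scaling. With equal medians or quantile scaling PEX13, PEX14, PEX15 and PEX17 were called lower in the reference too, and the PEX6 interaction did not pass. PEX22 did not pass in either strain, and its nitrogen-limited reference arrays ranged from 16.2 to 41.7. The deletion strain's calls of PEX4, PEX15 and PEX17 each ended without some single deletion arrays: PEX4 without carbon-limited 2 or 3 or nitrogen-limited 1 or 3 (-0.72 to -0.60), PEX15 without carbon-limited 3 or nitrogen-limited 1 or 3 (-0.60 to -0.50), and PEX17 without carbon-limited 1 or 3 or nitrogen-limited 1 or 3 (-0.50 to -0.43). PEX2 and PEX10 encode RING ubiquitin ligases that mark the receptors for export. With carbon limiting, PEX2 read 526, 507 and 474 in the reference and 599, 447 and 549.9 in the deletion strain, which overlapped. With nitrogen limitation PEX2 fell in the reference (-0.71 ± 0.15, adjusted p = 0.00149) and had -0.18 in the deletion strain, which did not pass, and PEX10 passed in neither (0.09 and -0.21). PEX3, the membrane anchor for Pex19, fell in both (-0.57 and -0.84, adjusted p = 0.0108 and 0.000971), and PEX19, the membrane protein receptor, passed in neither (0.16 and 0.47). Without carbon-limited reference array 2, PEX3 did not pass in the reference (-0.44).

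The genes for peroxisome number and size did not share a direction. PEX25, related to PEX11, rose in the reference (0.63 ± 0.20, adjusted p = 0.0171) and PEX27, the third of that family, fell there (-0.51 ± 0.17, adjusted p = 0.0257). In the deletion strain they had -0.38 and 0.10, and neither passed. Both reference calls ended without single arrays: PEX25 without carbon-limited 3 or nitrogen-limited 2 (0.41 to 0.52) and PEX27 without carbon-limited 1 or 3 or nitrogen-limited 2 (-0.49 to -0.40). PEX28 to PEX32 encode membrane proteins of the reticulum and peroxisome that limit peroxisome size and number. PEX28 read 66.5, 57.2 and 62.1 against 35.1, 35.3 and 36 in the reference and 59.2, 80.8 and 58.1 against 31.1, 33.5 and 29.9 in the deletion strain. It fell in both with no overlap between limitations (-0.80 ± 0.15 and -1.05 ± 0.15, adjusted p = 0.000454 and 4.75e-05). PEX31 read 31.4, 35 and 34.9 against 49, 46.6 and 62.5 in the reference, where it rose without overlap (0.63 ± 0.14, adjusted p = 0.00238), and 47.8, 53.8 and 46.1 against 46.7, 50.3 and 44.4 in the deletion strain, where it did not pass (-0.06). PEX32 read 35.8, 34 and 45.5 against 30.5, 26.5 and 26.2 in the reference and 37.9, 57.8 and 31.8 against 18, 17.2 and 19.3 in the deletion strain, and the 3 nitrogen-limited deletion arrays were the lowest. It fell in the deletion strain (-1.18 ± 0.19, adjusted p = 0.000207) and had -0.46 in the reference, which did not pass. PEX30 fell in the deletion strain (-0.56, adjusted p = 0.0342), a call that ended without any 1 of the 6 deletion arrays (-0.60 to -0.51), and PEX29 passed in neither (-0.25 and -0.32). PEX8, which links the docking and RING complexes, fell in the reference (-0.42, adjusted p = 0.0343), a call lost without carbon-limited array 2 or 3 or nitrogen-limited array 2 or 3 (-0.43 to -0.34), and had -0.35 in the deletion strain, which did not pass.

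Set side by side, the enzyme genes and the peroxins differed in size of change. In the reference, 11 of 12 beta-oxidation genes and 3 of 24 peroxins were called lower and changed by at least 2-fold. The counts were the same in the deletion strain, 11 of 12 and 3 of 24. The share of all genes that met both conditions was not counted. Without the 2-fold condition, 14.9% of all genes were called lower in the reference and 17.8% in the deletion strain. The largest decrease of a peroxin, that of PEX11, was exceeded by 10 of the 12 beta-oxidation genes in the reference and by 9 of 12 in the deletion strain. Relative to each gene's own mean over the 4 groups, the median of the 12 beta-oxidation genes was between 1.26 and 1.64 log2 on the 6 carbon-limited arrays. It was -1.23 to -1.13 on the nitrogen-limited reference arrays and -1.94 to -1.67 on the nitrogen-limited deletion arrays. The same median over the 24 peroxins was 0.125 to 0.366 on the carbon-limited arrays, -0.157 to -0.002 on the nitrogen-limited reference arrays and -0.395 to -0.176 on the nitrogen-limited deletion arrays. Within each family the 4 groups share the genes, so these medians describe the arrays and carry no test. Of the peroxins, 6 fell in both strains: PEX3, PEX7, PEX11, PEX18, PEX21 and PEX28. The share of all genes that fell in both strains was not counted, so this count has no background beside it.

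Without carbon-limited reference arrays 2 and 3, the reference limitation changes of ANT1 (-0.34), PIP2 (0.20), PEX3 (-0.32), PEX7 (-0.52), PEX8 (-0.20), PEX25 (0.17) and PEX27 (-0.55) did not pass, with 1 array left in the group. The same 7 did not pass with the actin ratio in the fit, at -0.25, 0.20, -0.34, -0.50, -0.21, 0.02 and -0.49 in that order. Without nitrogen-limited reference arrays 2 and 3, again with 1 array left, OAF1 (0.67), ANT1 (-0.44), PEX3 (-0.67), PEX7 (-0.60) and PEX25 (0.60) kept about the size of the full fit and did not pass. PIP2 (0.23), PEX8 (-0.33) and PEX27 (-0.36) were smaller and did not pass. Scaling the arrays to equal medians shifted the median change of all genes from 0.19 to -0.06 in the reference, and 28 of the 38 genes were then lower and 1, OAF1, higher, so the increases of PIP2, PEX25 and PEX31 were no longer called. PEX13, PEX14, PEX15, PEX17, PEX29, PEX30 and PEX32 were newly called as lower.

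Under nitrogen limitation the deletion strain differed from the reference in 11 of the 38 genes, 9 lower and 2 higher. Over all genes 22.2% were called, 16.1% as lower and 6.05% as higher, and the median change of all genes was -0.11. Among the beta-oxidation genes 4 of 12 were lower, with a median of -0.36 over the 12, and among the peroxins 4 of 24 were lower and 2 higher, with a median of -0.27.

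The thiolase gene POT1 was the most changed. The intensities given above, 60.6 to 71 on the reference arrays and 18 to 23.1 on the deletion arrays, did not overlap. POT1 was 3.31-fold lower in the deletion strain (log2 -1.72 ± 0.18, adjusted p = 9.07e-06). TES1, SPS19 and ECI1 followed, with -1.05 ± 0.21 (adjusted p = 0.00204), -1.04 ± 0.14 (adjusted p = 0.000139) and -0.87 ± 0.17 (adjusted p = 0.00192). Their reference and deletion arrays did not overlap either. The other enzymes of the cycle did not pass. FOX2 had 0.41 (95% interval -0.08 to 0.90, adjusted p = 0.181), CTA1 -0.01 and POX1 -0.19, the last 2 at or near the floor. FAA2 had -0.53 (adjusted p = 0.0607), and ANT1, PXA1 and PXA2 had -0.40, -0.33 and 0.22. With the actin ratio as a term in the limma fit, FOX2 passed as higher (0.62 ± 0.20, adjusted p = 0.041). In the same fit FAA2 passed as lower (-0.70 ± 0.19, adjusted p = 0.022). DCI1 and PEX18 were below 12 on all 6 nitrogen-limited arrays, so no fold is given. They enter the medians as 0. The unused probe sets of POX1 gave changes of -1.23, 0 and 0, the zeros because all 6 arrays lay below 12.

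OAF1 was lower in the deletion strain by 1.52-fold (log2 -0.60 ± 0.16, adjusted p = 0.0146), a call that ended without nitrogen-limited deletion array 1 (-0.48), while PIP2 had -0.07. Of the docking genes, PEX17 read 37.3, 29.5 and 37.3 in the reference and 17.3, 21.1 and 15.7 in the deletion strain. The groups were apart, and PEX17 was 1.93-fold lower (log2 -0.95 ± 0.16, adjusted p = 0.000552). With a floor of 32, above which 2 of the 6 arrays lie, PEX17 had -0.15 and did not pass (adjusted p = 0.0944, limma). PEX11 was 1.8-fold lower (log2 -0.85 ± 0.16, adjusted p = 0.0016). PEX32, a size regulator, and PEX6, a subunit of the ATPase that pulls receptors out of the membrane, were lower by 1.52-fold and 1.38-fold (adjusted p = 0.0347 and 0.0338). PEX6 read 212, 207 and 186 in the reference and 141, 145 and 152 in the deletion strain, which do not overlap. Both calls ended without any 1 of the 6 nitrogen-limited arrays, with changes of -0.65 to -0.54 for PEX32 and -0.52 to -0.42 for PEX6. The 2 genes that rose were PEX21 and PEX2. PEX21 read 107, 130 and 149 in the reference and 215, 270.4 and 179.5 in the deletion strain, 1.71-fold higher (log2 0.78 ± 0.20, adjusted p = 0.0106). PEX2 read 294, 289 and 339 in the reference and 407, 534 and 468 in the deletion strain, 1.52-fold higher (log2 0.61 ± 0.15, adjusted p = 0.0103). The groups did not overlap for either. The PEX21 call was lost without nitrogen-limited reference array 1 or deletion array 2 (0.62 to 0.65). Without nitrogen-limited reference arrays 2 and 3, where ThrX-3 was high, 1 array was left in the group and POT1, TES1, SPS19, PEX17 and PEX21 passed. The others kept their direction and did not pass, at -0.73 for ECI1, -0.69 for PEX11, 0.67 for PEX2, -0.55 for OAF1, -0.54 for PEX6 and -0.75 for PEX32. PEX22, at -1.02, passed in that fit (adjusted p = 0.0121), where its group is the single array at 41.7. OAF1, PEX6 and PEX32 also did not pass with arrays scaled to equal medians, and PEX32 did not pass with the actin ratio in the fit.

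**Figure D3:**
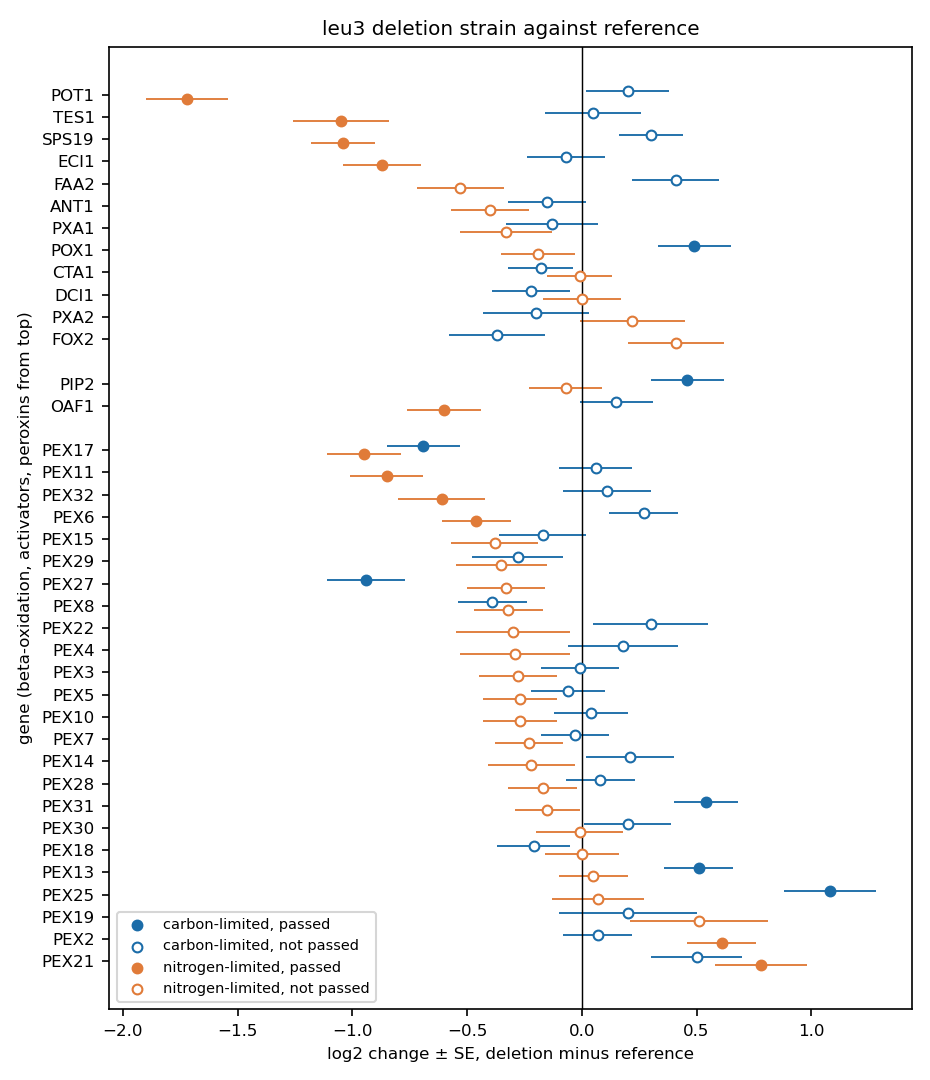
Log2 difference between the deletion strain and the reference (deletion minus reference) for each of the 38 genes under nitrogen and under carbon limitation, with bars for the standard error of the limma fit. Filled points passed an adjusted p under 0.05 and open points did not. POT1 under nitrogen limitation, at -1.72, is the lowest point, and PEX25 under carbon limitation, at 1.08, is the highest.

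Under carbon limitation on ethanol 7 of the 38 genes differed between the strains, 5 higher and 2 lower in the deletion strain. Over all genes 28.1% were called, 17.4% as higher and 10.7% as lower, and the median was 0.05. The share of members called, 18.4%, was below that background. Of the 12 beta-oxidation genes only POX1 passed, at 0.49 ± 0.16 (adjusted p = 0.0361), and its call ended without any 1 of 7 arrays (the 3 carbon-limited reference arrays, carbon-limited deletion arrays 2 and 3, nitrogen-limited deletion arrays 1 and 3), with changes of 0.37 to 0.53. The unused probe sets of POX1 gave 0.76, 2.46 and 2.47, all in the same direction and all larger. The one of 2.46 was below 12 on all 3 reference arrays. On reference arrays 1 to 3 the one of 2.47 read 59.9, 26.7 and 20.6 and the one of 0.76 read 44.5, 133.6 and 180.4. Arrays 2 and 3 of that group had the high actin ratios. The thiolase gene POT1 had 0.20 (95% interval -0.21 to 0.62), FOX2 -0.37 and CTA1 -0.18, none of which passed. PIP2 was higher (0.46 ± 0.16, adjusted p = 0.047), and its call ended without any 1 of 9 arrays (carbon-limited reference 2 and 3, nitrogen-limited reference 3, and all 6 deletion arrays), with changes of 0.39 to 0.53.

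Among the peroxins, PEX25 rose most. It read 94.2, 67.7 and 50.3 on the reference arrays and 164, 142 and 128 on the deletion arrays. The groups did not overlap, and the difference was 2.11-fold (log2 1.08 ± 0.20, adjusted p = 0.00167). PEX27 read 43.1, 37.4 and 45.2 in the reference and 19.2, 28.9 and 18.6 in the deletion strain, 1.92-fold lower (log2 -0.94 ± 0.17, adjusted p = 0.00166), again with no overlap. PEX25 and PEX27 encode related proteins of the Pex11 family, and PEX11 itself had 0.06, which did not pass. PEX17 was 1.62-fold lower, from 42.7, 40.2 and 41.5 to 27.1, 22.2 and 28.1 (adjusted p = 0.00517), and was the only member called lower in the deletion strain under both limitations with the floor of 12. With the floor of 32 its carbon-limited difference was -0.37 and passed. PEX31 and PEX13 were higher, by 0.54 and 0.51 log2 (adjusted p = 0.013 and 0.0194). The PEX31 call ended without carbon-limited deletion array 2 (0.48), and that of PEX13 without carbon-limited reference array 2 or deletion array 1 or 2 (0.40 to 0.48).

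The carbon-limited reference group holds both arrays of high actin ratio. Without carbon-limited reference arrays 2 and 3, with 1 array left in the group, PEX27 (-0.99) passed and the other 6 did not, at 0.62 for POX1, 0.18 for PIP2, 0.32 for PEX13, -0.73 for PEX17, 0.61 for PEX25 and 0.65 for PEX31. With the actin ratio as a term in the fit, 0 of the 38 genes passed in limma, with 5 at an unadjusted p under 0.05. In that fit POX1 (0.59 ± 0.30), PEX17 (-0.78 ± 0.29), PEX27 (-0.92 ± 0.33) and PEX31 (0.76 ± 0.26) stayed about as large or larger, with larger standard errors. PEX25 (0.22 ± 0.27), PIP2 (0.07 ± 0.28) and PEX13 (0.24 ± 0.26) were smaller. With arrays scaled to equal medians the split of the members turned, to 1 higher and 3 lower: POX1, PIP2, PEX13 and PEX31 no longer passed, and PEX8 passed as lower.

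The strain difference changed with the limitation in 10 of the 38 genes, all more negative under nitrogen limitation. The same value is the difference between the limitation effects of the strains. Over all genes 18.3% passed the interaction test, 13.1% as more negative and 5.24% as more positive, and the median of all genes was -0.20. Among the beta-oxidation genes POT1, SPS19, TES1, FAA2 and ECI1 passed, 5 of 12, with a median of -0.46. The interaction was -1.93 ± 0.25 for POT1 (adjusted p = 0.000273) and -1.34 ± 0.20 for SPS19 (adjusted p = 0.000608). FOX2 was opposite in sign and did not pass (0.79, adjusted p = 0.0778), CTA1 had 0.17, and POX1 -0.67 (adjusted p = 0.0537), where its unused probe sets gave -1.99, -2.46 and -2.47. The probe sets of -2.46 and -2.47 were below 12 on every nitrogen-limited array, so these values only repeat their carbon-limited differences with the sign turned. Among the peroxins PEX11, PEX25, PEX6 and PEX31 passed, 4 of 24, with a median of -0.25. PEX11 had -0.91 ± 0.23 (adjusted p = 0.0137). OAF1 passed with -0.75 ± 0.23 (adjusted p = 0.0331) and PIP2, at -0.53, did not. The POT1 and SPS19 interactions passed in each of the 12 fits without 1 array, and so did that of PEX11. With arrays scaled to equal medians the median interaction of all genes moved from -0.20 to 0.10, and the members called became 2 more negative, POT1 and SPS19, and 3 more positive, FOX2 (1.09), PEX2 (0.84) and PEX27 (0.92). Over all genes the calls then split into 598 more positive and 244 more negative.

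**Figure D4:**
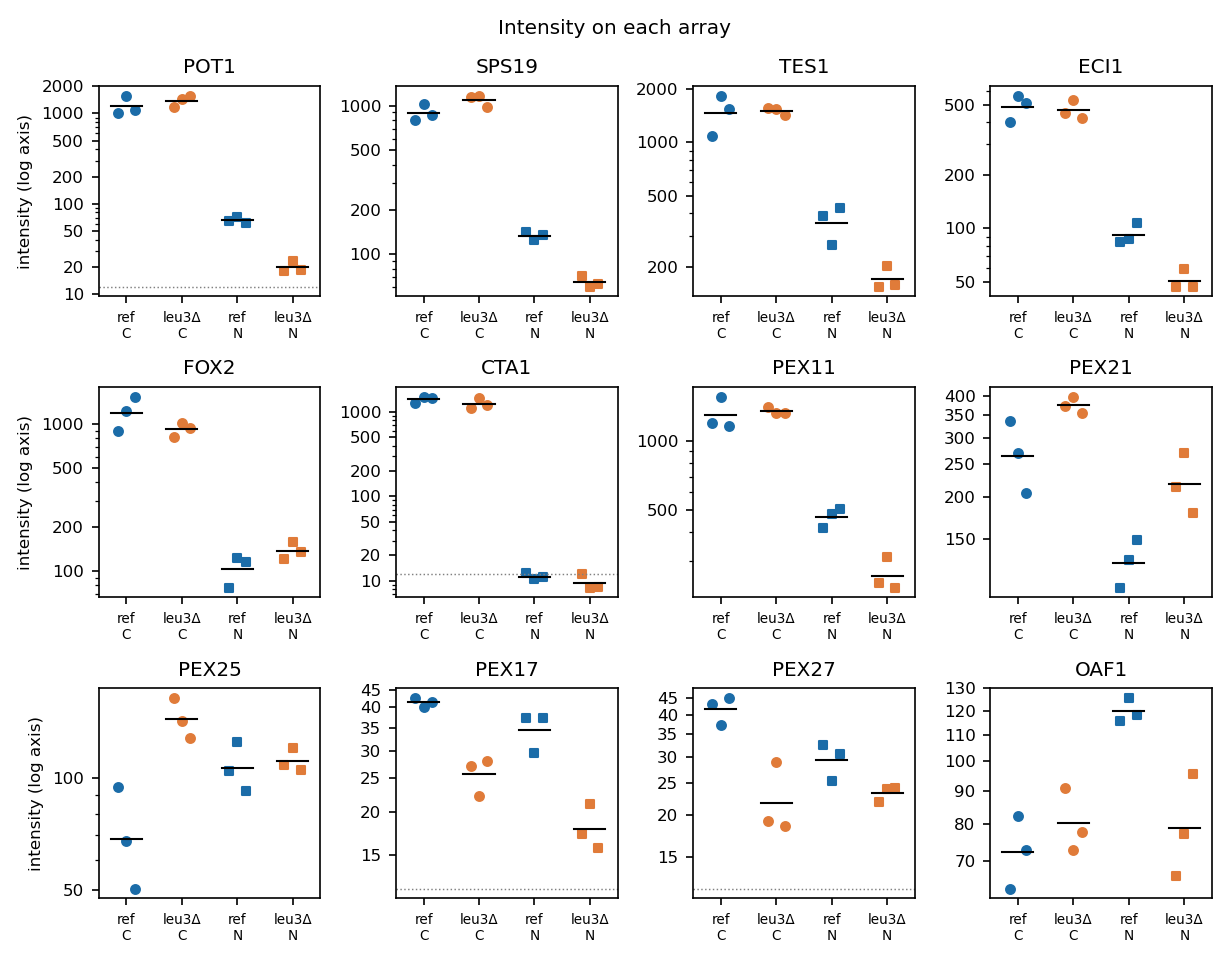
Intensity on each of the 12 arrays (log axis) for 12 of the genes, by group: reference and deletion strain, carbon (C) and nitrogen (N) limitation. Black bars are geometric means of the 3 arrays, and the dotted line, where shown, is the floor of 12. For POT1, SPS19, TES1 and ECI1 the strains are apart under nitrogen limitation and overlap under carbon limitation, and for PEX25 the strains are apart under carbon limitation.

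Other genes related to the organelle were read from 5 further lists. Their counts stand beside these shares of all genes. With nitrogen limitation 14.9% were lower and 32.6% higher in the reference, and 17.8% and 18.1% in the deletion strain. Between strains 16.1% were lower and 6.05% higher under nitrogen limitation. Under carbon limitation 10.7% were lower and 17.4% higher. The list of shuttle and cofactor enzymes held IDP3, CIT2, MDH3, MLS1, AAT2 and CAT2. With nitrogen limitation 6 of 6 fell in the reference and 5 of 6 in the deletion strain, with medians of -1.82 and -1.74. Where their products are located in these cultures was not tested. CAT2, carnitine acetyltransferase, read 1336, 1815 and 1634 against 124, 56.6 and 79.5 in the reference and 1027, 1135 and 828 against 25.5, 27.8 and 26.4 in the deletion strain. Its nitrogen-limited arrays were lowest in the deletion strain, and it changed by -4.27 ± 0.23 (adjusted p = 5.24e-10) and -5.22 ± 0.23 (adjusted p = 4.31e-11). IDP3, the peroxisomal isocitrate dehydrogenase that makes NADPH for the dienoyl-CoA reductase, changed by -2.43 and -2.97 (adjusted p = 1.13e-08 and 9.41e-10). Between strains under nitrogen limitation 3 of the 6 were lower (CAT2 -1.63, MLS1 -0.83, IDP3 -0.56) and 1 was higher. Under carbon limitation CAT2 was lower (-0.68, adjusted p = 0.0362). CIT2, the peroxisomal citrate synthase, passed the interaction test with 0.73 (adjusted p = 0.041).

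The 8 other matrix proteins were mixed. With nitrogen limitation 3 fell and 2 rose in the reference, and 4 fell and 3 rose in the deletion strain, with medians of -0.38 and -0.12. LPX1, a peroxisomal lipase, fell in both (-2.40 and -2.99, adjusted p = 6.01e-08 and 4.13e-09), as did PCS60 (-1.43 and -1.52). PCD1, a nucleotide hydrolase for CoA, fell in the deletion strain (-1.73, adjusted p = 4.63e-07) and was lower there than in the reference under nitrogen limitation (-0.80) and higher under carbon limitation (0.93). Between strains 2 of the 8 were higher and 1 lower under each limitation, and 2 were more positive and 1, PCD1, more negative in the interaction. A further list held 5 genes grouped as fatty acid activation and binding outside the organelle. Of these, 3 rose and 1 fell in the reference, and 2 rose and 1 fell in the deletion strain. The gene that fell was ACB1 in both strains (-0.93 and -0.78). FAA1, the main acyl-CoA synthetase outside the peroxisome, rose by 1.32 and 1.37 (adjusted p = 4.17e-05 and 3.49e-05), the opposite direction to the peroxisomal FAA2. It was lower in the deletion strain under both limitations (-0.69 under nitrogen and -0.73 under carbon limitation), and FAA3 was lower under nitrogen limitation (-0.73). Among 7 genes of division, inheritance and turnover, 1 fell in the reference and 4 in the deletion strain. The share in the reference, 14.3%, was near the 14.9% of all genes. ATG36, the receptor for peroxisome autophagy, fell in both (-1.33 and -1.33, adjusted p = 0.000114 and 0.000131). FIS1, a membrane anchor of the fission dynamin, fell in the deletion strain (-1.11, adjusted p = 1.4e-05). Between strains under nitrogen limitation INP2, DNM1 and FIS1 were lower (-0.76, -0.59 and -0.53), and FIS1 was higher under carbon limitation (0.51). In the interaction FIS1 had -1.04 (adjusted p = 0.00318). For the genes of these 5 lists, values from the fits without the arrays that stood apart are not given.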

How the data were processed

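RNA from 12 chemostat samples was measured on one-channel Affymetrix yeast arrays and each array was grouped by its title. The deposited values are linear intensity per probe set, and on each array the mean without the lowest and highest 2% of probe sets lay between 150.1 and 150.14. Software and background treatment were not given in the sources used here. The platform annotation assigned 6504 of 9335 probe sets to 1 gene, 328 to several and 2503 to none. Where a gene had several probe sets (315 genes), the brightest by mean log2 was kept. Intensities under 12 were raised to 12, log2 was taken, and 5321 of 5656 genes exceeded 12 on at least 3 arrays. Folds rest on this floor, and "at least" marks a group below 12 on all its arrays. Levels of different probe sets were not set against each other.

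All 5321 genes were fitted in R 4.3.3 with lmFit and eBayes of limma 3.58.1, as 4 group means with 8 residual degrees of freedom. Tests were two-sided, with Benjamini-Hochberg adjustment over all tested genes within each contrast and a threshold of 0.05. Errors are standard errors of the fit unless given as SD, and 3 arrays per group limit the precision. The statistics were tested on simulated data, and the outcome is not given here. Values on each array are given for the 3 core enzymes, the activators and, per contrast, up to 4 beta-oxidation genes and 4 peroxins of largest called change, and up to 4 genes are named per further list. The members and lists were chosen with earlier results of these data known. Alternatives covered the scaling, floor, offset, filter, probe set rule, groups fitted, replicate number, actin ratio and arrays left out.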

Additional observations from a re-analysis of the deposited data

Results flagged for a closer look

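In 10 of the 38 genes the strain difference under nitrogen limitation differed from that under carbon limitation by the interaction test of limma (log2, nitrogen minus carbon, ± SE). POT1 had -1.93 ± 0.25 (adjusted p = 0.000273): the strains overlapped under carbon limitation and the deletion arrays were lower under nitrogen limitation. SPS19 had -1.34 ± 0.20 (adjusted p = 0.000608), and both genes passed under every alternative run. TES1 had -1.10 ± 0.29 (adjusted p = 0.0181), lost without nitrogen-limited reference array 3 (-0.96) and with equal medians (-0.79). PEX11 had -0.91 ± 0.23 (adjusted p = 0.0137), kept without any 1 array and lost with equal medians, with the actin ratio as a term and without nitrogen-limited reference arrays 2 and 3. FAA2 had -0.94 ± 0.27 (adjusted p = 0.0273), with 1 nitrogen-limited deletion array below 12, and was lost without any 1 of carbon-limited deletion array 2, nitrogen-limited reference array 1 and nitrogen-limited deletion arrays 2 and 3 (-0.93 to -0.74). ECI1 had -0.80 ± 0.24 (adjusted p = 0.0305), lost without any 1 of 5 arrays (carbon-limited deletion 1 and 2, nitrogen-limited reference 3, nitrogen-limited deletion 1 and 3), at -0.82 to -0.69.

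OAF1 had -0.75 ± 0.23 (adjusted p = 0.0331), lost without any 1 of 7 arrays (carbon-limited deletion 1 and 3, all 3 nitrogen-limited reference, nitrogen-limited deletion 1 and 2), at -0.78 to -0.63. PEX25 had -1.01 ± 0.28 (adjusted p = 0.0234): its strains differed under carbon limitation and it was lost without carbon-limited deletion array 1, nitrogen-limited reference array 2 or nitrogen-limited deletion arrays 1 or 3 (-0.99 to -0.89). PEX6 had -0.74 ± 0.21 (adjusted p = 0.0238), lost without carbon-limited deletion array 1 or nitrogen-limited array 1 of either strain (-0.71 to -0.69). PEX31 had -0.69 ± 0.21 (adjusted p = 0.0296), lost without any 1 of the 5 arrays named for ECI1 (-0.71 to -0.56). The calls of FAA2, ECI1, OAF1, PEX25, PEX6 and PEX31 were also lost with equal medians, and all of these but ECI1 with the actin ratio as a term. Quantile scaling ended those of ECI1, OAF1, PEX25, PEX6 and PEX31. A floor of 32, or no filter, ended those of FAA2 and PEX25. An offset of 16 before log2 ended that of FAA2, and the replicate block that of OAF1. Leaving out nitrogen-limited reference arrays 2 and 3, bright for ThrX-3, left 1 array in the group. FAA2 (-1.08), ECI1 (-0.66), OAF1 (-0.7), PEX6 (-0.81), PEX25 (-0.98) and PEX31 (-0.6) then did not pass. Dropping carbon-limited reference arrays 2 and 3, of high actin ratio, also left 1 array. FAA2 (-0.68), PEX6 (-0.58) and PEX25 (-0.55) did not pass there, and ECI1, OAF1 and PEX31 were not lost. Groups of 3 are too small for a check of single outlying arrays.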

How the results depend on the processing

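With nitrogen against carbon limitation, every alternative kept the number of members called within 1.5 times: 20 to 26 in the reference and 22 to 27 in the deletion strain when 1 array was left out. All 12 beta-oxidation genes kept a negative change wherever they were tested, except DCI1, which was 0 in the deletion strain with a floor of 32. A filter above 12 on all 12 arrays removed POX1, FAA2, CTA1, DCI1 and PEX18, and with the floor of 32 the limitation calls of DCI1 and PEX18 ended in both strains and those of PEX4, PEX17 and PEX32 in the deletion strain. Between strains under nitrogen limitation, 11 members became 6 without nitrogen-limited reference arrays 2 and 3, and 8 to 12 with 1 array left out. Under carbon limitation, 7 (5 higher, 2 lower) became 4 with equal medians (1 higher, 3 lower), 4 with only the compared groups in the fit, 0 with the actin ratio as a term (5 at an unadjusted p under 0.05) and 1 without carbon-limited reference arrays 2 and 3, and 3 to 9 with 1 array left out. For the interaction, 10 became 5 with equal medians, 6 with quantile scaling, 4 with the actin ratio and 5 without nitrogen-limited reference arrays 2 and 3, and 5 to 12 with 1 array left out. PEX22 in the reference changed from -0.01 to 0.71 with nitrogen limitation without those nitrogen-limited arrays, which leaves the single array at 41.7 in its group. Fits without a pair of arrays take the spread of the remaining 1 array from the other groups. The replicate block gave 10, 5, 25, 26 and 10 members in the 5 contrasts (strain under nitrogen, strain under carbon, limitation in the reference, limitation in the deletion strain, interaction) and moved no count by over 1.5 times. Same-numbered arrays correlated over 0.1 in 2 of 18 pairs (-0.31 to 0.16), so the main fit does not pair samples by number. This check sees only links that follow the number, and a batch or culture shared in another way was not tested. Over all genes, calls between strains under nitrogen limitation were 715 against 1181 without nitrogen-limited reference arrays 2 and 3. Under carbon limitation they were 805 with only the compared groups, 54 with the actin ratio and 338 without carbon-limited reference arrays 2 and 3, against 1494. In the reference limitation they were 1289, 1556 and 1513 with the actin ratio and without either pair, against 2532. For the interaction they were 417, 634 and 504, against 976. With equal medians, calls over all genes split into 526 higher and 477 lower (strain, nitrogen), 542 and 987 (strain, carbon), 953 and 1345 (limitation, reference) and 1068 and 861 (limitation, deletion). The median changes of all genes were then 0.02, -0.11, -0.06 and 0.06. Signal near the floor limits POX1, CTA1, FAA2, DCI1 and PEX18 under nitrogen limitation.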
